A study of Homo sapiens with 6 samples.

Results

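The genes described here encode the machinery that separates chromosomes and ends mitosis. They were read from the deposited value table by gene symbol, current or older, and each gene was represented by its brightest probe set over all 6 arrays. Of 52 listed genes, 50 had a probe set on the array, out of 11963 genes tested. NUF2, an Ndc80 complex subunit, and ANLN, which encodes anillin, had none in the annotation used here and were not analysed.

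The series compared 3 RASv12 samples with 3 control samples of WI-38, a diploid fibroblast strain from human fetal lung. RASv12 cells overexpressed a constitutively active RAS and carry the cell type label senescent fibroblast. Control cells carry the labels wild type and growing fibroblast. Per the protocol both were kept at 3% oxygen, and genes were introduced by retrovirus. The labels name neither the RAS gene nor an empty vector for the controls, so infection and RASv12 cannot be told apart if the controls were not infected. They also give Cy3 for RASv12 samples and Cy5 for control samples, on an array type that reads 1 colour, so dye and group cannot be told apart if both dyes were used. The labels do not state if replicates were grown separately, and the p-values below may therefore measure technical spread alone.

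During mitosis the kinetochore ties each chromosome to spindle microtubules, and the spindle checkpoint holds the anaphase-promoting complex or cyclosome (APC/C) inactive until all are attached. APC/C with its coactivator CDC20 then marks securin and the mitotic cyclins for destruction, separase cuts the cohesin rings, and midzone proteins build the site of cytokinesis. Most of these genes are transcribed in late S, G2 and M phase by a programme that uses B-MYB and FOXM1, and normal fibroblasts switch that programme off when they leave the cell cycle.

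The values are MAS5 signal intensities in arbitrary units, and the trimmed mean of each array was 100.04. Between 48.6% and 54.1% of probe sets on RASv12 arrays and between 51.2% and 52.7% on control arrays lay above 27.98, the highest intensity of 27 probe sets for bacterial transcripts with low signal. That intensity is used below as background. It comes from the array of RASv12 replicate 3 alone. The highest such intensity was 12.6 and 16.7 on the arrays of RASv12 replicates 1 and 2, and 20.1, 17.1 and 16.1 on those of control replicates 1 to 3. Which genes are called dim below, and each lower bound of a fold, depend on this cutoff, and a lower one was not tried. HRAS, read as a check of the labels, had intensities of 816, 753 and 989.7 in RASv12 cells, against 222, 189 and 234 in control cells, with no overlap. The 10 fibroblast markers lay above background on every array, and 9 of them were lower in RASv12 cells, with summed intensities of 8030.2 to 9471 in RASv12 cells and 19794 to 22408 in control cells. Of 5 epithelial, 5 endothelial and 4 immune markers, KRT18 alone lay above background on every array, and 8 lay at or under it on all 6 (EPCAM, CDH1, CDH5, VWF, KDR, PTPRC, CD14 and CD79A). The 5′ to 3′ signal ratio of ACTB was 0.89 to 0.96 on RASv12 arrays and 0.71, 0.96 and 0.93 on the arrays of control replicates 1 to 3. That of GAPDH was 1.15, 1.24 and 1.18 on RASv12 arrays and 0.999, 1.18 and 1.03 on control arrays. The part of these ratios in the results was not tested. Without control replicate 1, 45 of the 50 genes described here were called lower. That fit leaves the ratios of the other arrays as they were and does not test their part.

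Nearly all of the 50 measured genes were lower in RASv12 cells. At an adjusted p under 0.05 (limma, Benjamini-Hochberg over all genes), 47 of 50 genes were called lower, 1 was called higher and 2 did not pass, while 15.3% of all genes tested were called lower, 13.8% higher and 29.1% in either direction. The median log2 change of the 50 genes was -2.12, against 0.020 for all genes tested. The 7 lists of related genes described below had 26 of 78 measured genes lower, 4 higher and 48 not called. Their median was -0.23, so the fall of the 50 does not stand for all of the machinery. Falls of at least 1 on the log2 scale, a halving, were called for 41 of 50 genes and for 5.09% of all genes, and falls of at least 2 for 27 of 50 and for 1.13%. All RASv12 samples lay below all control samples for 48 of 50 genes, against 22.0% of all genes, and above them for 1 of 50, against 19.7%.

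The 3 arrays of each group were close to each other. The median log2 level of the 50 genes was 5.50, 5.46 and 5.51 on RASv12 arrays and 7.75, 7.79 and 7.66 on control arrays, on the normalized log2(intensity + 16) scale. At or under background lay 28, 25 and 23 of them on RASv12 arrays 1 to 3, and 1 on each control array. In 24 genes the RASv12 group was dim in this sense, with all 3 samples or their mean at or under background. For these a lower bound of the fold is printed ("at least"), in which dim RASv12 values were first raised to background; the measured values stand beside it or in the plot of intensities. In such bulk RNA, fewer cells that express a gene and less RNA per cell cannot be told apart.

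**Figure D1:**
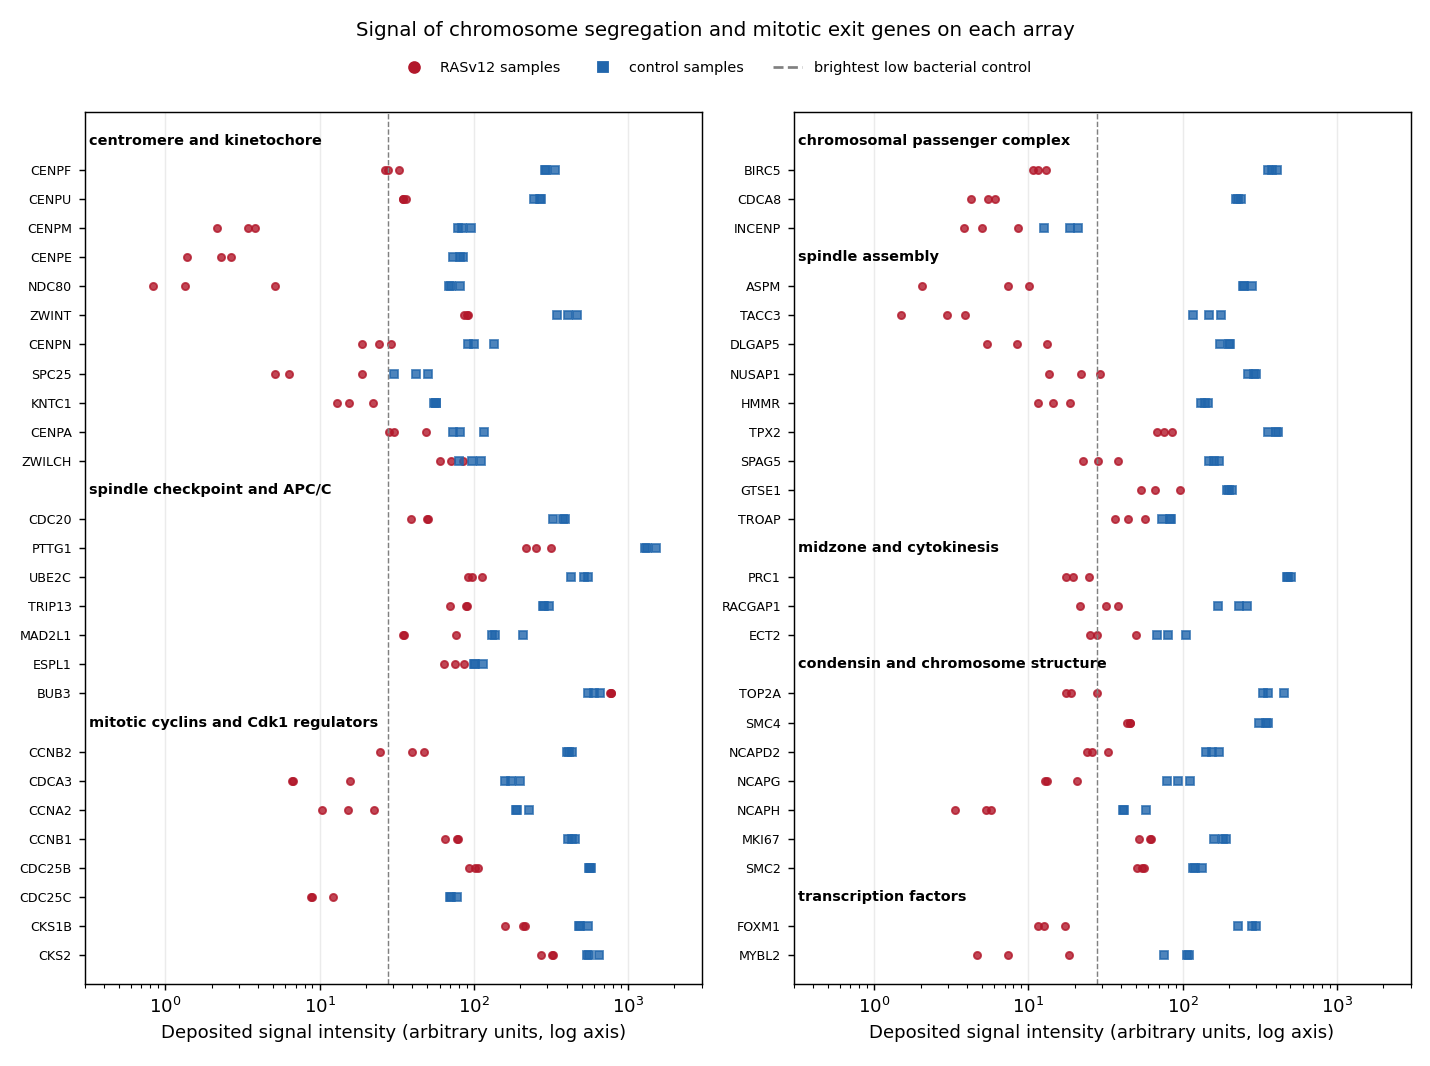
Deposited signal intensity (horizontal log axis, arbitrary units) of the 50 measured genes, 1 row a gene, grouped by role; circles are the 3 RASv12 samples and squares the 3 control samples, and the dashed line is the background of 27.98. The groups are apart in 48 rows with RASv12 to the left, overlap in ZWILCH, and lie the other way round in BUB3.

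Many mitotic genes share a short element near their start, the cell cycle genes homology region (CHR), which MuvB complexes bind. Some promoters are therefore shown, picked for holding its letters. The letters taken for it here are TTTGAA, searched on both strands, where the other strand reads TTCAAA. Other forms of the element were not searched, so a gene without these letters may still hold one. RefSeq promoter windows (GRCh38.p14, 250 bases before to 50 after an annotated start) existed for 43 of the 52 genes. Of these, 32 (74.4%) held the letters, against 18.2% of 27305 genes with a window. The 9 genes without a window were CENPM, KNTC1, BUB3, UBE2C, BIRC5, TPX2, TROAP, RACGAP1 and FOXM1. BIRC5 had the largest fall of the 50 measured genes, -3.84, and could not be searched. TACC3, at -3.09, has a window without the letters. Below are the 6 measured genes with the largest falls among those 32, from 200 bases before the start to 30 bases from it, with the CHR letters in capitals.
PRC1: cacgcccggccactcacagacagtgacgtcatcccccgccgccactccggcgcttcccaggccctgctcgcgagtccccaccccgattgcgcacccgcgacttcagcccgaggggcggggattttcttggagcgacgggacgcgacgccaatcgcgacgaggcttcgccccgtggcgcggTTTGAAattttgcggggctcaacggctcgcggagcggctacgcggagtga
ASPM: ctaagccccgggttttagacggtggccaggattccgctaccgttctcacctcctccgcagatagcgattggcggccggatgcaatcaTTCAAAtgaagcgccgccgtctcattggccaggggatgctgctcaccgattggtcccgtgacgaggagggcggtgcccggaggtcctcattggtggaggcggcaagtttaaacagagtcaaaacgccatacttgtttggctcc
CDCA8: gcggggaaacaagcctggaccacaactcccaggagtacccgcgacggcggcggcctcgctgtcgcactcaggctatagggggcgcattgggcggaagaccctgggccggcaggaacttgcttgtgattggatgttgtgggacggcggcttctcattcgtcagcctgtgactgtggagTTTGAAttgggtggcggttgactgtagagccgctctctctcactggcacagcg
TOP2A: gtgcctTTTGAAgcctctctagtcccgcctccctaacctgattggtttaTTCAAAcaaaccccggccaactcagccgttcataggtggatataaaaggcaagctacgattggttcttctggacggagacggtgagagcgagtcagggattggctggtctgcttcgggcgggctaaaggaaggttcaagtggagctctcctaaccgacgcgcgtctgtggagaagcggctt
DLGAP5: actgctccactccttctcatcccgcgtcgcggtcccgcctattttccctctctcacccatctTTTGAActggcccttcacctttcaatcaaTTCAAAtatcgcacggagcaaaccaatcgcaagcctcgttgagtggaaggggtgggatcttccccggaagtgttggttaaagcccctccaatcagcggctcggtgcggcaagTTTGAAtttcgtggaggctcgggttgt
NUSAP1: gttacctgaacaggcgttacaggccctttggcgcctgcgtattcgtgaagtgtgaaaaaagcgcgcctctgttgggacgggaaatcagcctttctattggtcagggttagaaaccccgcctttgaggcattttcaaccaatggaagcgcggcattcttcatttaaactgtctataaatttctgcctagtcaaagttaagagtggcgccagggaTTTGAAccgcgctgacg

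The PRC1 window lies at chr15:90994506-90994735 on the minus strand (GRCh38.p14), and its match begins 20 bases before the start. The ASPM window is chr1:197146640-197146869 on the minus strand, with its match on the opposite strand from position -113, counting the start as 0. For CDCA8 the window is chr1:37692316-37692545 on the plus strand, with a match from -23. TOP2A has chr17:40417867-40418096 on the minus strand, with matches from -194 and, on the opposite strand, -151. DLGAP5 has chr14:55191556-55191785 on the minus strand, with matches from -138 and 3 and, on the opposite strand, -109. The NUSAP1 window is chr15:41332681-41332910 on the plus strand, with its match from 13. In PRC1, CDCA8, DLGAP5 and NUSAP1 a match thus lies within 25 bases before or after the start.

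A match that began between 50 bases before and 44 bases after the start was held by 27 of the 43 genes (62.8%) and by 5.77% of all genes with a window. CCAAT, the core of the box that the factor NF-Y binds, was found on either strand in 32 of 43 (74.4%), against 39.7% of all. Both sets of letters stood in 1 window in 25 of 43 (58.1%), against 7.26%. Of 2 forms of the E2F core, TTCCCGC was held by 7 of 43 (16.3%) against 7.82%, and TTGGCGC by 3 of 43 (6.98%) against 3.66%, again on either strand. A CCAAT and a TTTGAA match can share an end base.

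Genes with the letters did not have the larger median fall. The 30 measured genes with TTTGAA had a median log2 change of -1.95 (from -3.79 to -0.36), and the 11 with a window but without the letters had a median of -2.31 (from -3.09 to -0.30). CCNA2, CCNB1, CDC25B and TACC3 are among those 11 and fell, and ESPL1 holds the letters and was not called. These matches are a description of letters in 1 window, not of bound sites.

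**Figure D2:**
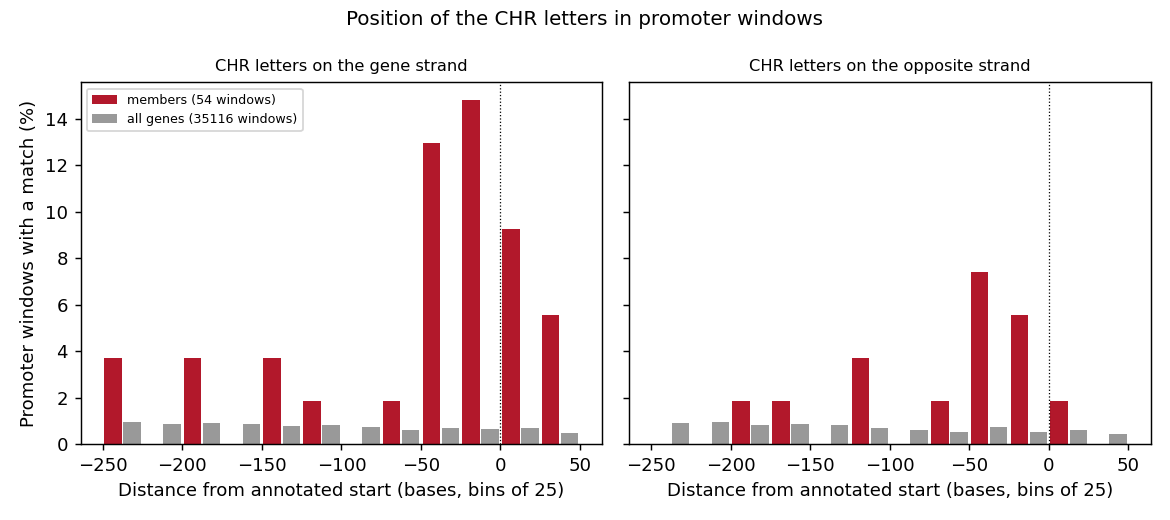
Share of promoter windows (vertical axis, percent) with the CHR letters by distance from the annotated start in bins of 25 bases (horizontal axis), on the gene strand (left) and the opposite strand (right); the left bar of each pair is the 54 windows of the genes described here and the right bar all 35116 windows. On the gene strand the members' share peaks at 14.8% in the bin from -25 to -1, where all windows have 0.64%.

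At the centromere and kinetochore 10 of 11 measured genes fell, 1 was not called, and the median log2 change was -1.97. CENPF, a large protein of the outer kinetochore, had intensities of 27.9, 26.7 and 32.9 in RASv12 cells, against 289.6, 337 and 294 in control cells. It fell by 2.84 on the log2 scale (SE 0.10, adjusted p = 8.8e-06), and its groups were far apart. CENPE, the motor that slides chromosomes to the spindle equator, had 1.37, 2.30 and 2.66 in RASv12 cells, against 73.7, 81.7 and 84.8 in control cells. All RASv12 values of CENPE lay under background, so it was at least 2.86-fold lower (adjusted p = 1.2e-05).

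CENPM and CENPU belong to the constitutive centromere-associated network, the inner layer that sits on centromeric chromatin. Intensities of CENPM were 2.17, 3.44 and 3.84 in RASv12 cells, against 95.8, 84.4 and 78.5 in control cells, at least 3.07-fold lower (adjusted p = 1.3e-05). CENPU had 34.7, 36.3 and 34.9 in RASv12 cells, against 247, 270.4 and 274 in control cells, a log2 change of -2.44 ± 0.10 (SE, adjusted p = 1.4e-05). CENPN, also of this layer, was at least 3.80-fold lower on its brightest probe set (adjusted p = 0.0013), while its other probe set, at -0.16, was not called. Further subunits of the layer are in the list of other kinetochore genes below, and most of those were not called.

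NDC80, the microtubule-binding subunit of the outer kinetochore, was at least 2.63-fold lower (adjusted p = 3.5e-05) and its partner SPC25 at least 1.44-fold lower (adjusted p = 0.0048). ZWINT, which helps to place the checkpoint complex of ROD, ZW10 and ZWILCH, changed by -1.97. CENPA, the histone H3 variant that marks the centromere, changed by -0.99 ± 0.19 (adjusted p = 0.0089). KNTC1, which encodes ROD, was at least 2.01-fold lower (adjusted p = 0.0014). ZWILCH, of the same complex, had intensities of 85.5, 70.7 and 60.1 in RASv12 cells, against 80.1, 112 and 97.7 in control cells. Its groups overlapped, and at -0.30 ± 0.17 (SE) it did not pass (adjusted p = 0.23).

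A list of 24 other centromere and kinetochore genes, 19 of them measured, had 7 lower, none higher and 12 not called, at a median log2 change of -0.26. The share lower was 36.8%, beside 15.3% of all genes tested, of which 13.8% were higher. HJURP, the chaperone that loads CENPA, had 4.51, 7.83 and 5.02 in RASv12 cells, against 158, 166 and 158 in control cells and was at least 5.75-fold lower (adjusted p = 6.3e-06). OIP5, a subunit of the Mis18 complex that licenses this loading, was at least 2.01-fold lower (adjusted p = 0.0034), and CENPI at least 1.46-fold lower (adjusted p = 0.0057). The remaining calls were SKA1, NSL1, PMF1 and MIS18A, with log2 changes from -0.81 to -0.60. SKA1 was dim in both groups. CENPI and NSL1 have 2 probe sets each, of which 1 each was called lower over all probe sets. Of the 12 genes not called, 6 were dim in both groups (CENPC, CENPO, CENPQ, DSN1, KNL1 and SPC24). For these the lack of a call cannot be read as no change. The list's median is the value of one of them, CENPQ. Among the others, CENPB at 0.08, MIS12 at -0.08 and ZW10 at -0.02 were above background. CENPT, at 0.29, lay above background on every array but that of control replicate 3. Like CENPC, CENPI, CENPO and CENPQ, it belongs to the inner layer described above, and of these CENPI alone was called lower. Without the 7 genes dim in both groups the median of the list was -0.52.

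Among 7 genes of the spindle checkpoint and of APC/C activity, 5 fell, 1 rose and 1 was not called, and the median log2 change was -1.62. CDC20, the coactivator that the checkpoint holds back, had intensities of 50.7, 49.96 and 39.0 in RASv12 cells, against 389, 325 and 379 in control cells. It changed by -2.60 ± 0.15 (SE, adjusted p = 5.0e-05), with no overlap. UBE2C, the ubiquitin-conjugating enzyme that starts chains for APC/C, had 97.7, 113 and 91.3 in RASv12 cells, against 429, 549 and 521 in control cells, a change of -2.13 ± 0.13. The securin gene PTTG1, whose product blocks separase until APC/C removes it, had 218, 254 and 317 in RASv12 cells, against 1326, 1515 and 1294 in control cells. It changed by -2.36 ± 0.16 and stayed well above background in both groups, on a probe set whose suffix marks probes shared with other transcripts.

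TRIP13, the ATPase that remodels MAD2, had 69.7, 89.2 and 90.1 in RASv12 cells, against 309, 284 and 280.3 in control cells, a log2 change of -1.62 ± 0.11. MAD2L1, which encodes MAD2, changed by -1.43 ± 0.29 (SE, adjusted p = 0.011), and RASv12 replicate 2 stood apart at 76.6 beside 35.4 and 35.0. ESPL1, which encodes separase, had 76.1, 64.6 and 86.5 in RASv12 cells, against 116, 100.4 and 101 in control cells. Its groups did not overlap, but at -0.36 ± 0.11 it did not pass (adjusted p = 0.056), and it did pass in 4 of 16 alternative settings.

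BUB3 was the exception. It encodes an adaptor that brings BUB1 and BUBR1 to kinetochores, and its brightest probe set had 772, 768 and 773 in RASv12 cells, against 548, 654 and 605 in control cells. All RASv12 values lay above all control values, and BUB3 rose by 0.33 ± 0.10 (log2, SE; adjusted p = 0.048). This call was lost in 10 of 16 alternative settings, and the suffix of the probe set marks probes shared with other transcripts. Its other 3 probe sets had log2 changes of 0.049, -0.24 and -0.37, and none of the 4 was called over all probe sets. The mean of its probe sets changed by -0.055 (adjusted p = 0.72), so the direction depends on the probe set.

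None of 8 measured core APC/C subunits, out of 14 listed, was called in either direction, with log2 changes from -0.44 for ANAPC15 to 0.24 for ANAPC10 and a median of -0.12. Of the 3 adaptors and partners, the inhibitor gene FBXO5 was at least 1.35-fold lower (adjusted p = 0.0035). The other coactivator gene, FZR1, at 0.21 and the chain-extending enzyme gene UBE2S at -0.18 did not pass. Of these 11 genes 9.09% were thus lower and none higher, beside 15.3% and 13.8% of all genes tested. CDC23, a core subunit named after its value was seen, lay just outside the threshold at -0.37 ± 0.11 (adjusted p = 0.0501), with 56.4, 69.7 and 71.2 in RASv12 cells, against 104, 96.1 and 83.0 in control cells, and all its RASv12 samples below all control samples. The 11 genes had 2 called lower, in place of 1, with a pseudocount of 32, values as deposited, median centring, the mean of probe sets or without control replicate 3. With scaling to the hybridization controls, which moved the median of all genes to 0.20, 2 of these 11 genes were called higher and 1 lower.

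All 8 genes of the mitotic cyclins and of Cdk1 regulation fell, with a median log2 change of -2.31. CCNB2, which encodes cyclin B2, had intensities of 24.7, 39.7 and 47.4 in RASv12 cells, against 435, 417 and 402 in control cells. It changed by -3.03 ± 0.13 (SE, adjusted p = 1.8e-05), and CCNB1, for cyclin B1, with 78.6, 78.4 and 64.8 in RASv12 cells, against 452, 436 and 410.2 in control cells, by -2.31 ± 0.12. CCNA2, for cyclin A2, lay under background in all RASv12 samples, with 10.4, 15.2 and 22.6 in RASv12 cells, against 188, 228 and 189 in control cells. It was at least 7.19-fold lower (adjusted p = 1.8e-05), and both of its probe sets fell.

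The phosphatase gene CDC25B, whose product activates Cdk1 before mitosis, had 93.4, 102 and 107 in RASv12 cells, against 558, 579.7 and 567 in control cells, a log2 change of -2.31 ± 0.086 (adjusted p = 1.0e-05). CDC25C was at least 2.61-fold lower (adjusted p = 4.8e-05) on its brightest probe set, and its other 2 probe sets, at or near background on all arrays, were not called. CDCA3, which helps to remove the Cdk1 inhibitor WEE1, was at least 6.30-fold lower (adjusted p = 8.9e-05). The small Cdk-binding genes CKS1B and CKS2 changed less, by -1.34 ± 0.13 and -0.92 ± 0.12. These paralogs remained above 150 in every sample, as the plot of intensities shows.

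The chromosomal passenger complex carries Aurora B from centromeres to the midzone. BIRC5, which encodes its subunit survivin, had intensities of 13.1, 10.7 and 11.5 in RASv12 cells, against 378, 410.1 and 359 in control cells, and was at least 13.6-fold lower (adjusted p = 6.1e-06). All 3 of its probe sets fell. CDCA8, the borealin gene, had 4.27, 5.49 and 6.09 in RASv12 cells, against 222, 237 and 230.0 in control cells, at least 8.21-fold lower (adjusted p = 2.7e-06). INCENP, the scaffold, had 8.52, 3.84 and 4.97 in RASv12 cells, against 18.6, 12.6 and 20.9 in control cells. Both groups lay under background, so no fold is given; it was called lower (adjusted p = 0.023), and leaving out RASv12 replicate 2 or 3 or control replicate 1 or 3 ended that call, with adjusted p from 0.064 to 0.080.

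All 9 spindle assembly genes fell, at a median log2 change of -2.32. ASPM, a spindle pole protein, had 10.1, 7.39 and 2.03 in RASv12 cells, against 248, 280.0 and 250.2 in control cells, at least 9.25-fold lower (adjusted p = 2.4e-05). DLGAP5, which stabilises kinetochore fibres, had 5.42, 13.2 and 8.47 in RASv12 cells, against 199.8, 204 and 175 in control cells, at least 6.88-fold lower (adjusted p = 1.3e-05). TACC3, which crosslinks those fibres, had 3.90, 2.96 and 1.49 in RASv12 cells, against 178, 148 and 117 in control cells, at least 5.20-fold lower (adjusted p = 3.2e-05). In these 3 genes every RASv12 sample lay under background and every control sample lay above 100.

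TPX2, which activates Aurora A and nucleates microtubules, stayed above background in both groups, with 68.3, 75.3 and 85.5 in RASv12 cells, against 403, 414 and 359 in control cells. Its log2 change was -2.11 ± 0.10 (SE, adjusted p = 2.3e-05). The microtubule-binding genes NUSAP1 and HMMR were at least 10.0-fold (adjusted p = 3.3e-05) and at least 4.97-fold lower (adjusted p = 4.2e-05), and SPAG5, the astrin gene, changed by -1.94. GTSE1, a microtubule tip protein, changed by -1.29 on its brightest probe set, and its other 3 fell by 0.52, 1.62 and 2.13 on the log2 scale. TROAP, a spindle-associated protein, had the smallest change of the 9, -0.57 ± 0.12 (adjusted p = 0.012), and was not called with scaling to the hybridization controls.

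The 3 measured genes of the midzone and cytokinesis fell, at a median log2 change of -2.34. PRC1, which bundles antiparallel microtubules into the midzone, had 19.4, 24.6 and 17.4 in RASv12 cells, against 508, 473 and 478 in control cells. It was at least 17.4-fold lower (adjusted p = 7.1e-06), the largest such bound among the 23 genes with one. RACGAP1, a subunit of centralspindlin, had 21.5, 31.8 and 38.1 in RASv12 cells, against 231, 261 and 169 in control cells, a log2 change of -2.34 ± 0.17. ECT2, the exchange factor that switches on RHOA for the contractile ring, had 27.9, 49.96 and 24.9 in RASv12 cells, against 105, 80.4 and 68.1 in control cells. At -0.97 ± 0.24 it was called (adjusted p = 0.023), but not without RASv12 replicate 1 or 3 or control replicate 1 or 2, with adjusted p from 0.054 to 0.074, nor with a pseudocount of 1 (adjusted p = 0.051).

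Other cytokinesis genes, apart from kinesins, were a list of 15 with 12 measured, of which 6 fell, none rose and 6 did not pass. The share lower was 50%, beside 15.3% of all genes tested, of which 13.8% were higher. MYH10, a non-muscle myosin heavy chain, had 99.9, 102 and 108 in RASv12 cells, against 559, 573 and 544 in control cells, a log2 change of -2.26 ± 0.084 (adjusted p = 1.0e-05). CEP55, which recruits the abscission machinery, was at least 5.75-fold lower (adjusted p = 4.4e-05). SEPTIN7, a filament-forming GTPase, changed by -0.53, while RHOA at 0.12 and the ESCRT ATPase gene VPS4A at 0.02 did not pass. With scaling to the hybridization controls, 2 genes of this list were called lower and 2 higher.

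All 7 genes of condensin and chromosome structure fell, at a median log2 change of -1.77. SMC4, an ATPase core subunit of both condensins, had 43.7, 45.9 and 45.7 in RASv12 cells, against 346, 355 and 312 in control cells. It changed by -2.52 ± 0.096 (SE, adjusted p = 1.1e-05), and its partner SMC2 by -0.94 ± 0.094. The condensin I subunit NCAPD2 had 25.7, 24.1 and 32.9 in RASv12 cells, against 171, 143 and 156 in control cells, at least 5.28-fold lower (adjusted p = 4.1e-05). NCAPG was at least 3.35-fold lower (adjusted p = 3.3e-04) and NCAPH at least 1.65-fold lower (adjusted p = 2.8e-04), the last with controls near background.

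TOP2A, the topoisomerase that untangles sister chromatids, had 19.0, 27.8 and 17.4 in RASv12 cells, against 452, 329.7 and 355 in control cells, at least 13.4-fold lower (adjusted p = 3.2e-05). MKI67, which encodes the chromosome surface protein Ki-67, had 52.0, 61.4 and 62.0 in RASv12 cells, against 159, 191 and 184 in control cells, a log2 change of -1.34 ± 0.10. Its 4 probe sets all fell, with log2 changes from -2.71 to -1.33. Both genes separated the groups with no overlap.

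The 3 subunits of condensin II, which were not among the 50, fell as well, at a median of -1.13. NCAPG2 was at least 5.64-fold lower (adjusted p = 1.0e-04), NCAPH2 at least 1.70-fold lower (adjusted p = 0.0077), and NCAPD3 changed by -0.88 ± 0.14. Of the 4 probe sets of NCAPH2, 2 were called lower over all probe sets. Cohesin, the ring that separase opens, had 5 of 10 measured genes lower, 2 higher and 3 not called, out of 16 listed, at a median of -0.50. That is 50% lower and 20% higher, beside 15.3% and 13.8% of all genes tested. STAG1 changed by -0.88 ± 0.10 and RAD21, the subunit that separase cuts, by -0.91 ± 0.12. Both have 2 probe sets, of which 1 each was called lower over all probe sets. WAPL, which releases cohesin from chromatin, rose by 0.48 ± 0.091 (adjusted p = 0.0084). WAPL has 3 probe sets, of which 1 was called higher, and with the mean of probe sets neither it nor any other gene of the list was. Over the 16 alternative settings the list had 2 to 6 genes lower and 0 to 3 higher.

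**Figure D3:**
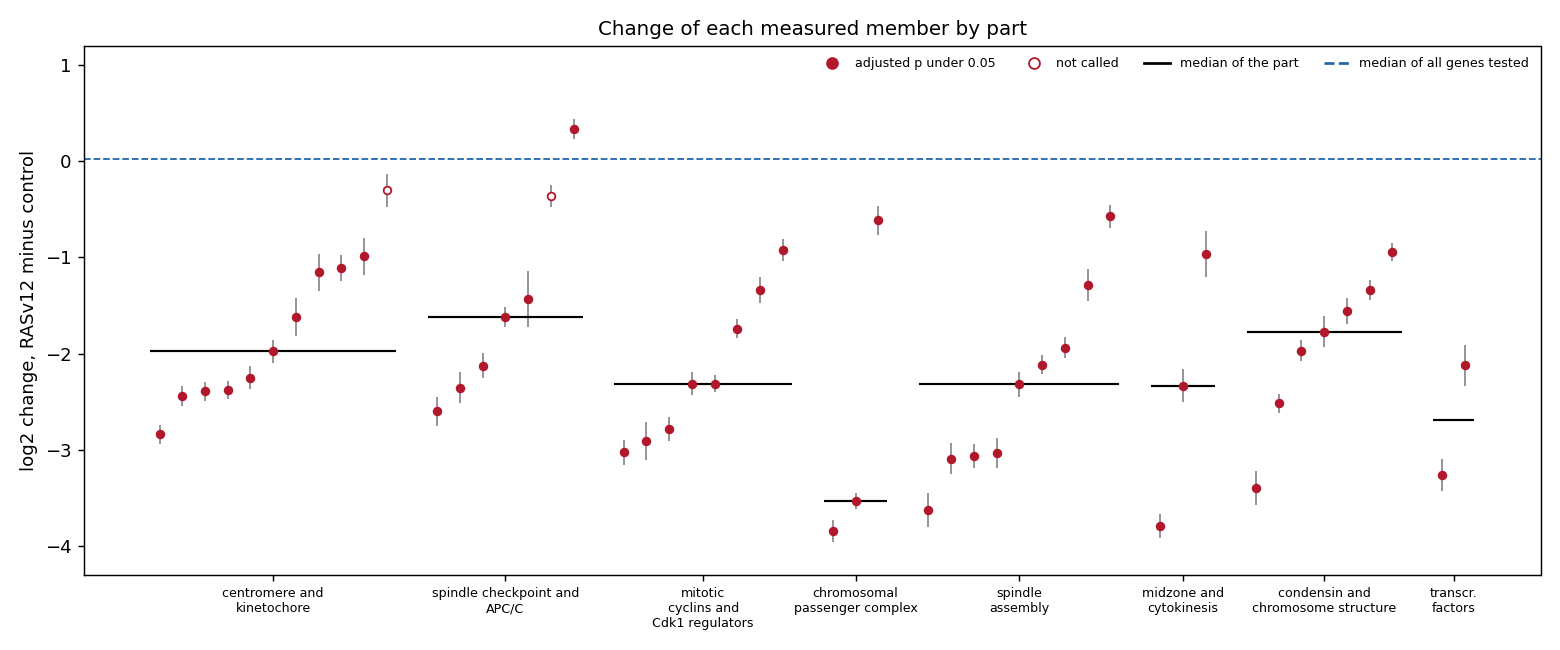
Log2 change, RASv12 minus control, of each measured gene (points, with SE bars from the limma fit, 3 samples a group), grouped by role; horizontal lines are the medians of the groups of genes and the dashed line the median of all genes tested, 0.020. Open points, ZWILCH and ESPL1, did not pass, and BUB3 is the only point above the dashed line.

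FOXM1 and MYBL2 encode transcription factors of the G2 and M phase programme. FOXM1 had intensities of 17.2, 11.6 and 12.6 in RASv12 cells, against 297, 229.7 and 283 in control cells, at least 9.59-fold lower (adjusted p = 2.8e-05). MYBL2, the gene for B-MYB, had 4.62, 18.2 and 7.34 in RASv12 cells, against 106, 75.8 and 109 in control cells, at least 3.43-fold lower (adjusted p = 5.4e-04). Every RASv12 sample of both lay under background. The only probe set of FOXM1 has a suffix that marks probes shared with other transcripts.

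The MuvB core can join B-MYB, or be part of the DREAM complex, which represses the same genes in resting cells. The list of MuvB and DREAM subunits had 2 of 8 measured genes lower, none higher and 6 not called, out of 11 listed. That is 25% lower, against 15.3% of all genes tested, and the median was -0.23. Of the 6 not called, 2 were dim in both groups on the brightest probe set (RBL1 and E2F5). For these the lack of a call cannot be read as no change. TFDP1, a partner of E2F factors, changed by -0.50 ± 0.095 (adjusted p = 0.0087), and the pocket protein gene RBL2 was at least 1.71-fold lower (adjusted p = 0.044). Neither of the 2 probe sets of RBL2 was called over all probe sets, and 1 of the 2 of TFDP1 was called lower. The list had 1 gene lower with a pseudocount of 1, the mean of probe sets, or without RASv12 replicate 2 or 3 or control replicate 1 or 3, and 3 without RASv12 replicate 1. LIN37 at 0.22, E2F4 at 0.32 and RBBP4 at -0.13 did not pass. Of the MuvB core only LIN37 and RBBP4 were measured. The other measured genes of the list encode pocket proteins, E2F factors or partners of E2F factors, so the counts say little about MuvB itself. Of the 2 probe sets of RBBP4, 1 was called lower over all probe sets, and of the 2 of E2F5, 1 was called higher. With scaling to the hybridization controls, none of the 8 was called lower and 1 was called higher.

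Phosphatases that reverse mitotic phosphorylation, with their inhibitors, had 2 of 15 lower, 2 higher and 11 not called, at a median of 0.098. That is 13.3% in each direction, near the 15.3% lower and 13.8% higher of all genes tested. CDC14B changed most, with 25.7, 29.7 and 26.3 in RASv12 cells, against 126, 127 and 124 in control cells, at least 4.40-fold lower (adjusted p = 5.7e-05). PPP2R2A, the B55 alpha subunit that directs PP2A in mitotic exit, had 853, 688 and 653 in RASv12 cells, against 301, 379.6 and 392 in control cells, a rise of 0.98 ± 0.14 (adjusted p = 0.0025). PPP2R5C, a B56 subunit, changed by -0.87, while the catalytic genes PPP2CA at 0.14 and PPP1CC at -0.13 did not pass. Over all probe sets, 1 of the 3 of PPP2R5C and 3 of the 5 of CDC14B were called lower. With scaling to the hybridization controls 6 of the 15 were called higher.

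**Figure D4:**
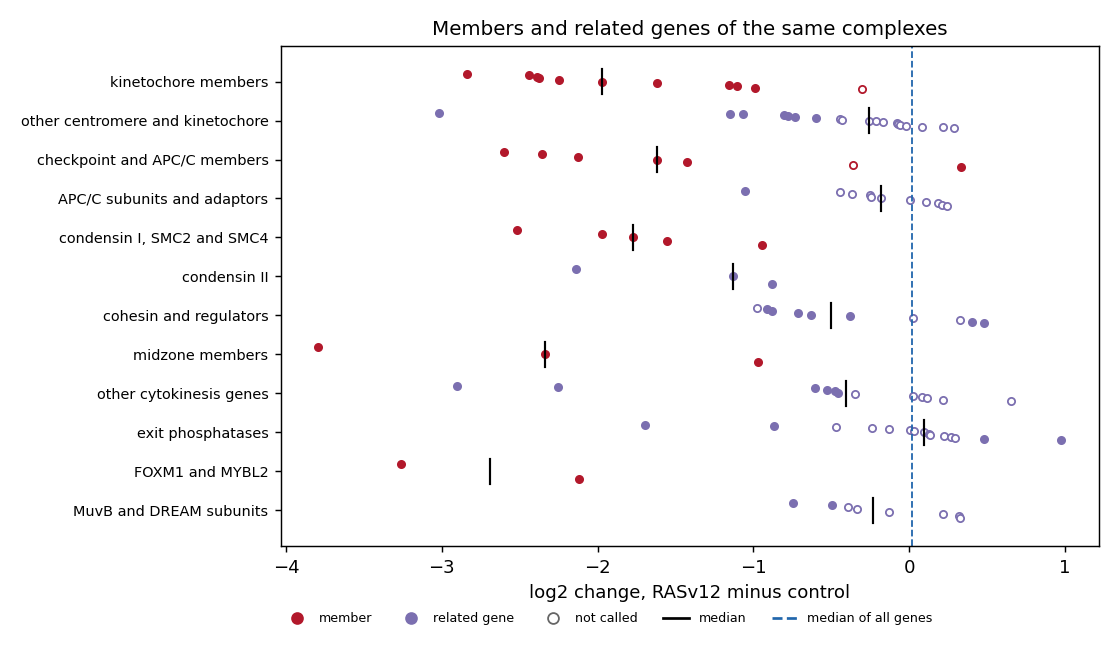
Log2 change, RASv12 minus control (horizontal axis), of genes described here (red) above related genes of the same complexes or steps (purple), 1 point a gene; open points did not pass, bars are medians and the dashed line is the median of all genes. Kinetochore members centre on -1.97 and other kinetochore genes on -0.26, of which 7 of 19 were dim in both groups, and APC/C subunits and adaptors lie around -0.18.

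By role, medians ran from -3.54 for the passenger complex, over -2.69 for the pair of transcription factors, -2.34 for the midzone, -2.32 for spindle assembly and -2.31 for cyclins and Cdk1 regulators, to -1.97 for the kinetochore, -1.77 for condensin and -1.62 for the checkpoint and APC/C. The ranges overlapped widely: kinetochore genes ran from -2.84 to -0.30, condensin genes from -3.40 to -0.94 and midzone genes from -3.79 to -0.97. No test was made between roles, since the genes are not replicates, and the log2(intensity + 16) scale compresses the change of dim genes. The order of the medians turned with the pseudocount. With a pseudocount of 1, condensin at -2.51 fell further than the kinetochore at -2.14, and spindle assembly at -3.16 further than the midzone at -2.81. With a pseudocount of 32, condensin at -1.38 fell less than the checkpoint and APC/C at -1.48. All 3 midzone genes, all 7 condensin genes, 10 of 11 kinetochore genes and 5 of 7 checkpoint and APC/C genes were called lower, and on leaving out 1 sample the midzone count was 2 or 3 and the other counts did not change.

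Several probe sets read 15 of the 50 genes. Of 25 probe sets other than the brightest, 16 were called lower, none higher and 9 not called (adjusted over all probe sets, of which 13.0% were called lower). Of those 9, 3 belong to BUB3 and 1 to ESPL1, and CDC25C has 2, while CENPF, CENPN and SMC4 have 1 each. Of the 9, 3 lay at or under background on all arrays. BIRC5 showed the widest spread among probe sets that were all called lower, from -3.84 to -1.45. In 5 genes the brightest probe set has the suffix _x_at, which marks probes shared with other transcripts (BUB3, CENPA, FOXM1, GTSE1 and PTTG1). For CENPA, FOXM1 and PTTG1 it is the only probe set. In 25 further genes the brightest probe set has the suffix _s_at, which marks a set that can match several transcripts, of 1 gene or of more.

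**Figure D5:**
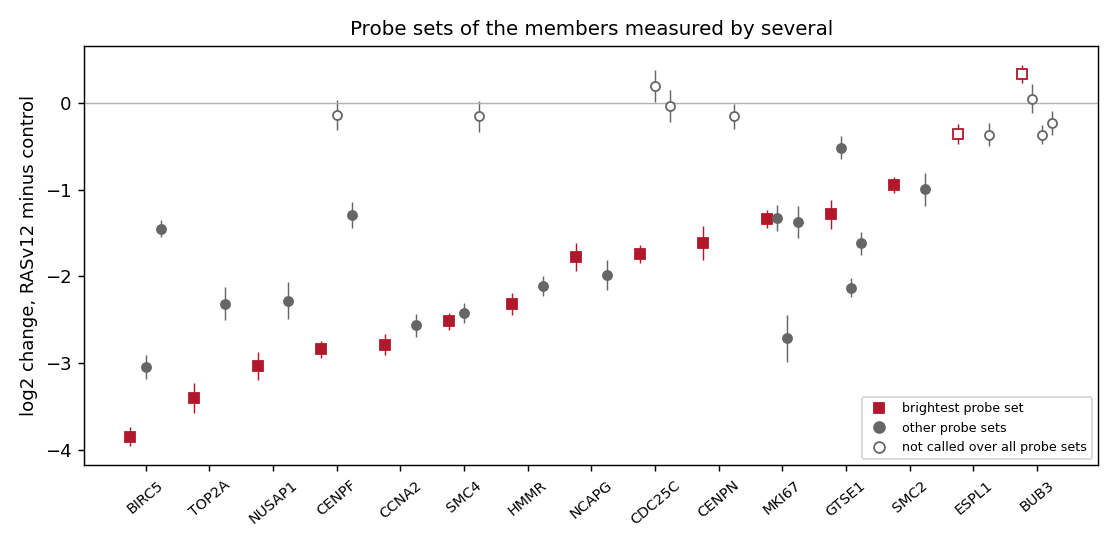
Log2 change, RASv12 minus control, with SE bars (3 samples a group), of each probe set of the 15 genes with several; squares are the brightest probe set, circles the others, and open symbols did not pass over all probe sets. Probe sets of BUB3 lie on both sides of 0, from -0.37 to 0.33.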

How the data were processed

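The authors deposited 1 value table of linear signal intensity for 22283 probe sets, and the submitters' processing notes name MAS5. No version or target intensity is given in the sources used here. Total RNA was amplified in 2 rounds, per the labels' protocols. Without 68 control probe sets, 22215 were tested. Probe sets with 1 gene symbol (19065) were named through RefSeq gene identifiers, which gave 11963 genes.

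Intensities were transformed as log2(intensity + 16), quantile normalized between arrays and compared with limma 3.58.1 (lmFit and eBayes, R 4.3.3). No dim probe sets were left out. P-values were adjusted by Benjamini-Hochberg over all genes, with a threshold of 0.05. The fit was tested on simulated data. Correlations between arrays were 0.974 to 0.987 within groups and 0.911 to 0.928 between groups, and no arrays were identical. The number of arrays limits the precision.

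Every measured gene is named; values in each sample are given for up to 4 genes per role with the largest moderated t and for any not called lower, and for related lists up to 3 called genes are described. SKA1, NSL1, PMF1, MIS18A, CDC23 and uncalled genes of related lists were named after their values were seen. The genes, lists and tests were chosen with earlier results of these data known. Alternatives were other pseudocounts, scalings, filters and probe set rules, a trend in the prior variance, a replicate block, and leaving out each sample.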

Additional observations from a re-analysis of the deposited data

How the results depend on the processing

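Of the 50 genes, between 45 and 48 were called lower under all 16 alternatives. No fall of a called gene reversed. BUB3 reversed to -0.055 with the mean of its probe sets. Leaving out each sample gave 45 to 46 genes lower and 0 to 1 higher, with a median of -2.26 to -2.08. The count called higher was 0 with a pseudocount of 1, median centring, no dimmest 25%, the mean of probe sets or the replicate block. Same-numbered samples did not deviate together (correlations of -0.26, -0.032 and -0.084). With 3 samples a group this cannot tell if same-numbered samples were grown or processed together. The replicate block left 47 genes lower. The median of the 50 genes was -2.52 with a pseudocount of 1, -1.71 with 32, -1.89 with scaling to the hybridization controls, -2.25 without the dimmest 50% of probe sets (47 genes left) and -2.04 with the mean of probe sets. That scaling gave 1050 genes lower and 2822 higher of all genes, against 1835 and 1647.

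Among related lists, other kinetochore genes had 4 lower with a pseudocount of 1, and 5 to 7 on leaving out a sample. APC/C genes had 2 lower with a pseudocount of 32, values as deposited, median centring or the mean of probe sets, 1 to 2 on leaving out a sample, and 2 higher with scaling to the hybridization controls or 1 with the mean of probe sets. Cohesin had 3 lower and 1 higher with a pseudocount of 1 or the replicate block, 2 lower with that scaling, 1 higher on deposited values, 0 higher with the mean of probe sets, and 2 to 4 lower and 1 to 2 higher on leaving out a sample. Exit phosphatases had 1 higher with a pseudocount of 1 and 6 with that scaling. MuvB and DREAM genes had 1 lower with a pseudocount of 1 or the mean of probe sets, 0 lower and 1 higher with that scaling, and 1 to 3 lower and 0 to 1 higher on leaving out a sample. Other cytokinesis genes had 2 lower and 2 higher with that scaling. The cause was not tested. Signal at background limits 24 of the 50 genes to a bound or, for INCENP, to no fold.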
